A study of Mus musculus with 23 samples.

Results

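The genes described here are those whose annotated symbol starts with Kcn, which is the symbol family of the potassium channel subunits and of some proteins that bind to them. There were 88 such genes among the 19057 genes with a probe of 1 symbol on the mouse array, and 33 of them were detected, by a detection p-value under 0.01 on at least 3 of the 23 arrays. Another 50 were not detected on any array and 5 (Kcnd3, Kcnf1, Kcnj2, Kcnj4 and Kcnj11) were detected on no more than 2. Of the 33, Kcnq1ot1 is a noncoding RNA transcribed antisense to Kcnq1, and Kcnrg codes for a regulator that is not a channel subunit. The 33 genes are each given by their brightest detected probe, and they passed the detection limit because of their level, so their counts describe the detected genes and not the whole family.

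RNA had been measured in thoracic aorta, abdominal aorta and small branches of the superior mesenteric artery of male C57BL/6J mice, 12 weeks old. AngII mice had received angiotensin II from an implanted osmotic minipump at 490 ng/kg/min for 14 days, and Sham mice had received its vehicle in the same way. On each array was a pool of 1 vessel type from 2 mice, with 3 AngII and 3 Sham arrays of each aortic segment and, for mesenteric arteries, 6 AngII and 5 Sham arrays. Because the arrays of a group are separate pools, the spread behind each p-value is that among pools, and pools of different vessels must share mice, since the mice used were fewer than the vessels pooled. Which pools share them is not given, and the comparisons between vessels treat all arrays as independent. The whole vessel wall was measured, and fewer cells of a type and less RNA per cell cannot be told apart.

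Potassium channels let potassium leave the cell and so pull the membrane towards negative voltages. In arterial smooth muscle this closes voltage-gated calcium channels and relaxes the vessel, and the main classes there are the large-conductance calcium-activated channel (BK), the voltage-gated (Kv) channels, the inward rectifiers (Kir), among them the ATP-sensitive channel, and the leak channels with a pair of pore domains (K2P). Endothelial cells use the small- and intermediate-conductance calcium-activated channels to hyperpolarise and dilate the vessel.

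Signals below are log2 intensities after background correction and normalization of the 23 arrays together, and a transcript passed a comparison when its limma p-value, adjusted by Benjamini-Hochberg over all 20585 detected transcripts, was under 0.05. An offset of 16 was added before the logarithm, which makes the fold of a dim gene smaller than its true value. Where a gene was detected on no array of a group, its fold is a lower bound against the dimmest signal that was detected on each of those arrays. Between 17432 and 18657 transcripts were detected per array. Defining smooth muscle markers, with Kcnma1 and Kcnmb1 among them, were detected in every group (12 of 12). 1 Sham abdominal array carried skeletal muscle transcripts, with a mean marker signal of 9.04 against 4.87 and 4.95 on the others, and 3 mesenteric arrays (2 AngII, 1 Sham) carried pancreas transcripts, with mean marker signals of 12.60 to 13.96 against 5.60 to 8.98 on the other mesenteric arrays. Each call of a Kcn gene, or of a partner gene named further on, that was lost or gained without these arrays is given with its value without them.

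By class, the detected genes were Kcnma1 (the only BK pore gene), 1 of 3 BK beta subunits, 3 of 7 genes for small- or intermediate-conductance and related channels, 5 of 14 pore-forming Kv1 to Kv4 genes, 2 of 10 silent Kv subunits, 1 of 3 KCNQ genes, 3 of 8 EAG and ERG type genes, 6 of 12 Kv auxiliary subunits, 3 of 13 inward rectifiers and 6 of 14 K2P genes. Several genes that are known for a role in vessels were not among them: Kcnn3, the small-conductance channel of endothelium, and Kcnq1 were detected on 0 arrays, and Kcnj2, the inward rectifier of small arteries, on 1. The 12 genes detected on all 23 arrays were Kcnma1, Kcnmb1, Kcnab1, Kcnab2, Kcna6, Kcne4, Kcnh2, Kcnh6, Kcnj8, Kcnk3, Kcnk6 and Kcnq1ot1.

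The largest differences lay between vessels. In Sham mice, 27 of the 33 genes differed between thoracic aorta and mesenteric arteries, 13 higher and 14 lower in the aorta, against 51.8% of all detected transcripts (29.2% higher and 22.5% lower). For the abdominal aorta the count was 25 genes, 11 higher and 14 lower, against 45.9% (24.9% and 21%). The shares were 81.8% and 75.8% of the detected Kcn genes, and the median differences were -0.01 and -0.10 against 0.07 and 0.05 over all detected transcripts. Kcn shares count only the brightest probe of a gene, while the backgrounds here and below count every detected probe. Kcnk2, Kcne1l and Kcnu1 were detected on mesenteric arrays only, and Kcnip4 and Kcnh1 on aortic arrays only. These genes met the detection limit through the vessel where they were high. The excess over the background therefore cannot be read as a trait of the family. With the authors' own normalized values, which moved the median of all transcripts in the first comparison to -0.28, the 27 genes that passed split into 7 higher and 20 lower. Cyclic loess gave 11 higher and 14 lower.

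**Figure D1:**
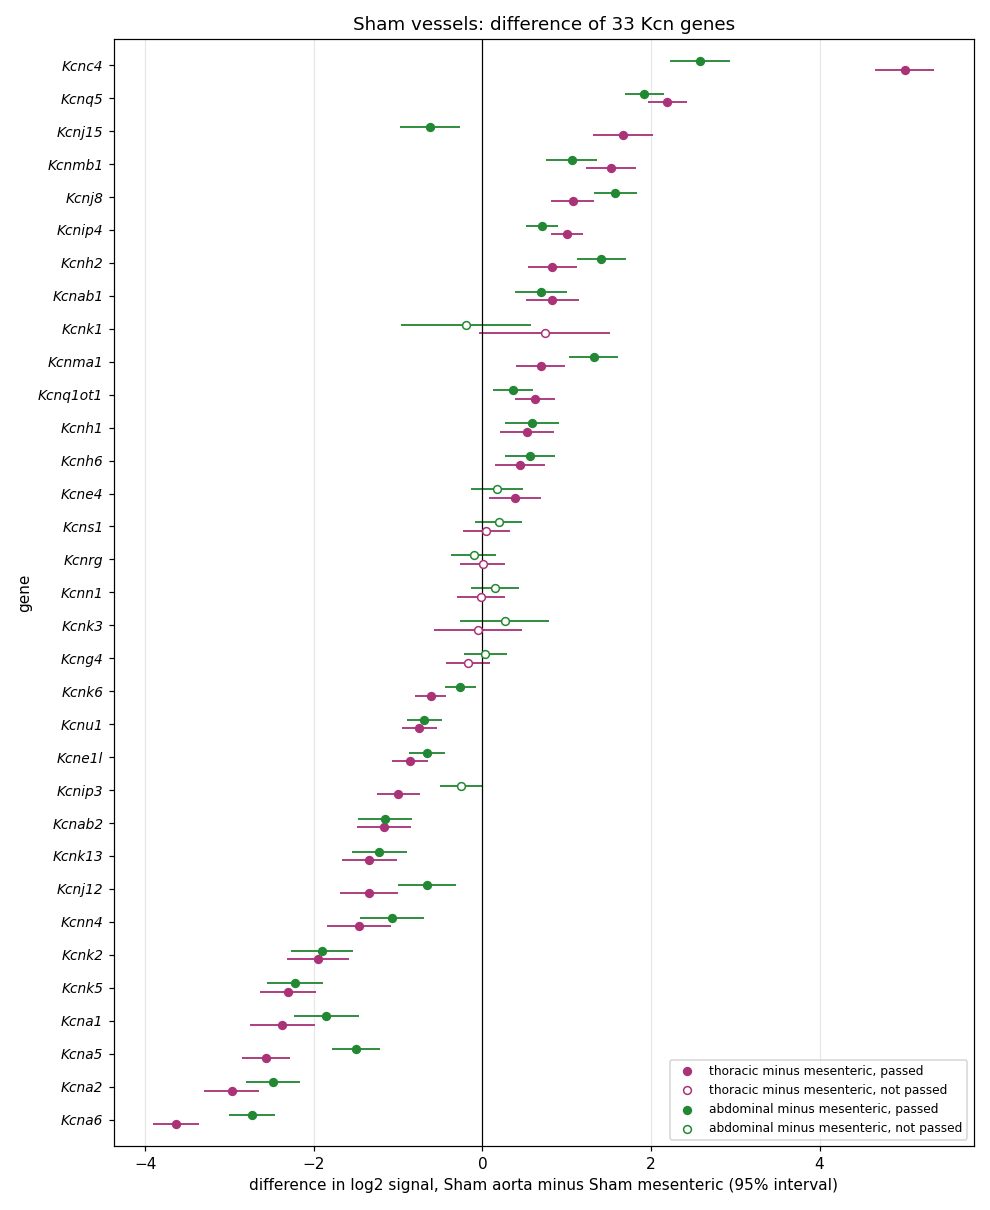
Difference in log2 signal between Sham aorta and Sham mesenteric arteries for the 33 detected Kcn genes (rows), with thoracic aorta in purple, abdominal aorta in green, 95% intervals as lines and filled points for genes that passed. Kcnc4 (5.01 and 2.58) and Kcnq5 (2.19 and 1.92) stand at the aortic end and Kcna6 (-3.63 and -2.74) and Kcna2 (-2.98 and -2.49) at the mesenteric end, while Kcnj15 lies on opposite sides of 0 in the thoracic and the abdominal aorta.

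Both BK genes were higher in the aorta. Kcnmb1 codes for the beta subunit that raises the calcium sensitivity of the BK channel in smooth muscle. Its Sham signals were 9.89, 9.82 and 10.05 in thoracic aorta, 9.68, 9.27 and 9.42 in abdominal aorta, and 8.27, 8.50, 8.08, 8.48 and 8.65 in mesenteric arteries. Every aortic array was above every mesenteric array, by 2.88-fold for the thoracic aorta (log2 difference 1.53 ± 0.14 SE, limma adjusted p = 5.42e-09) and 2.08-fold for the abdominal aorta (1.06 ± 0.14, adjusted p = 2.35e-06). The thoracic arrays of Kcnmb1 were above the abdominal ones without overlap, but that difference did not pass (0.47, 95% interval 0.13 to 0.80, adjusted p = 0.0559). Without the array that carried skeletal muscle transcripts it was 0.58 and passed (adjusted p = 0.0328).

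Kcnma1, the pore-forming BK subunit, followed another order among the vessels. Its Sham signals were 8.18, 8.30 and 8.46 in abdominal aorta, 7.55, 7.72 and 7.78 in thoracic aorta, and 7.06, 7.34, 6.85, 6.77 and 6.93 in mesenteric arteries. The 3 vessels did not overlap. The abdominal aorta was 2.50-fold above mesenteric arteries (1.32 ± 0.14, limma adjusted p = 6.02e-08) and the thoracic aorta 1.61-fold (0.69 ± 0.14, adjusted p = 0.000238). The thoracic aorta was below the abdominal aorta by -0.63 ± 0.16 (adjusted p = 0.00797), but 2 further Kcnma1 probes gave -0.40 and -0.06 there, with adjusted p = 0.0732 and 0.854. In the authors' values the thoracic and mesenteric Kcnma1 levels differed by 0.01 (adjusted p = 0.954). Kcnmb2 and Kcnmb4, the other BK beta genes on the array, were detected on 0 arrays.

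The Kv1 genes ran in the other direction. Kcna1, Kcna2, Kcna5 and Kcna6 code for shaker-type Kv channels, which open on depolarisation, and Kcna5 is a known Kv channel of arterial smooth muscle. All 4 detected Kv1 genes were lower in both aortic segments than in mesenteric arteries. Kcna6 had Sham signals of 6.17, 6.27 and 5.80 in thoracic aorta, 6.74, 7.22 and 6.95 in abdominal aorta, and 9.45, 9.73, 9.85, 9.69 and 9.84 in mesenteric arteries. It was thus 12.4-fold higher in mesenteric arteries than in thoracic aorta (log2 difference -3.63 ± 0.13, limma adjusted p = 5.84e-16) and 6.67-fold higher than in abdominal aorta, with no array of one vessel inside the range of another. A second Kcna6 probe gave -3.44 and -2.69.

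Kcna2 had signals of 4.95, 5.18 and 4.91 in thoracic, 5.20, 5.66 and 5.64 in abdominal and 7.95, 8.21, 8.23, 7.52 and 8.03 in mesenteric Sham vessels. Every mesenteric array was far above the brightest aortic array, and the differences were -2.98 ± 0.16 and -2.49 ± 0.16 (limma adjusted p = 2.56e-13 and 1.08e-11). Kcna5 was not detected on any thoracic array (4.41, 4.31 and 4.32) and read 5.60, 5.31 and 5.31 in abdominal aorta and 6.66, 6.96, 6.67, 6.99 and 7.27 in mesenteric arteries. This placed the vessels in the order mesenteric, abdominal, thoracic without overlap, with Kcna5 at least 3.75-fold lower in the thoracic aorta than in mesenteric arteries and at least 1.32-fold lower than in abdominal aorta (adjusted p = 3.29e-13 and 2.67e-05). Kcna1, detected on 1 of 3 thoracic and 2 of 3 abdominal Sham arrays, differed from mesenteric arteries by -2.37 ± 0.19 and -1.85 ± 0.19.

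Genes were chosen by symbol and not by position, but the neighbours named here also share the Kcna symbol. Position and subfamily cannot be told apart for them. Kcna5, Kcna1 and Kcna6 lie next to each other on chromosome 6, with 0 protein-coding genes between neighbours in the RefSeq annotation, and all of them were higher in mesenteric arteries. Kcna2 lies on chromosome 3 between Kcna3 and Kcna10, which were detected on 0 arrays. The 250 bases before the RefSeq transcript start (build GRCm38.p6) are shown for Kcna5 and Kcna6, which share a chromosomal cluster and a direction, for Kcna2, which shares the direction only, and for Kcnc4, also on chromosome 3, which had the largest difference in the other direction. Kcna1 is named only. Capitals mark a GC box (GGGCGG or its reverse complement CCGCCC, overlapping matches counted).
Kcna5, chr6:126535556-126535805, minus strand: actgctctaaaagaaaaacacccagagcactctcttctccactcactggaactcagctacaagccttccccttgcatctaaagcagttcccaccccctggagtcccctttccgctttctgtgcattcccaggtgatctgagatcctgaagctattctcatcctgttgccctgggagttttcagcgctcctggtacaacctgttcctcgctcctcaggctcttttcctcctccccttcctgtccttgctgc
Kcna6, chr6:126740675-126740924, minus strand: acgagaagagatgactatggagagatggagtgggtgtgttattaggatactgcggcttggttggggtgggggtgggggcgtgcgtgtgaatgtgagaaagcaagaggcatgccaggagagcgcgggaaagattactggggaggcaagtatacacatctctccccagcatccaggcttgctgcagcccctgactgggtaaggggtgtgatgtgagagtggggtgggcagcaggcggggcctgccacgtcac
Kcna2, chr3:107101317-107101566, plus strand: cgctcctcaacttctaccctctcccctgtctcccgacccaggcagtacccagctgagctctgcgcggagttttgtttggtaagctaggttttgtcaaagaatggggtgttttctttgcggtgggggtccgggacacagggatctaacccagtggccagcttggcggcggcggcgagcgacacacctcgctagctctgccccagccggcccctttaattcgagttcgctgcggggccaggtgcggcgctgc
Kcnc4, chr3:107458899-107459148, minus strand: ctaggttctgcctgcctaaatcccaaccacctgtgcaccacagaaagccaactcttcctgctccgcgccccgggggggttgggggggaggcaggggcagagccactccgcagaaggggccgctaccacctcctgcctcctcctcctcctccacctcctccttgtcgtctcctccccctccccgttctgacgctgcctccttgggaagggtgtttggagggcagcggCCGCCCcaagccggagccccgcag

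Of the 4 windows shown, the one before Kcnc4 held 1 GC box and the others none, while 32.7% of all 32851 windows of this length held one. A promoter window was found for 67 of the 88 Kcn genes, and 41 of their 92 windows held a GC box. The CArG box, the motif that serum response factor binds in many smooth muscle genes, was searched for on both strands and found in 0 of the 92 windows, against 1.47% of all windows. The TATA box, searched as TATAAA or TTTATA, was in 2 of the 92 against 12.4% of all windows. These are matches of letters in a short window and say nothing about the binding of a factor.

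Kcnc4 codes for a fast-inactivating Kv channel of the shaw type, and it had the widest range of all the detected Kcn genes. Its Sham signals were 9.67, 9.68 and 9.57 in thoracic aorta, 6.88, 7.27 and 7.48 in abdominal aorta, and 4.39, 4.48, 4.86, 4.74 and 4.69 in mesenteric arteries, where it was detected on 0 of 5 Sham arrays. The vessels were far apart and did not overlap. Kcnc4 was at least 26.2-fold higher in the thoracic aorta than in mesenteric arteries (fitted log2 difference 5.01 ± 0.17, limma adjusted p = 2.01e-16) and at least 4.87-fold higher in abdominal aorta (2.58 ± 0.17, adjusted p = 2.96e-11). Between the aortic segments the difference was 5.39-fold (2.43 ± 0.19, adjusted p = 3.49e-09). A second, dimmer Kcnc4 probe also placed the thoracic aorta above both other vessels (1.57 and 1.41), but it was not detected in abdominal Sham aorta, and the abdominal excess over mesenteric arteries did not pass on it (0.16, adjusted p = 0.269).

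Kcnq5, the detected member of the KCNQ (Kv7) family whose channels hold the resting voltage of smooth muscle, was also an aortic gene. Its signals were 7.21, 7.56 and 7.40 in thoracic, 7.14, 7.06 and 7.14 in abdominal and 5.23, 5.30, 5.38, 4.98 and 5.09 in mesenteric Sham vessels. The aortic arrays of Kcnq5 lay above all mesenteric arrays, by 4.58-fold (2.19 ± 0.11, limma adjusted p = 1.53e-13) and 3.78-fold (1.92 ± 0.11, adjusted p = 2.92e-12), and the thoracic excess over the abdominal aorta did not pass (0.27, 95% interval 0.02 to 0.53, adjusted p = 0.157). Kcnh2, the ERG channel of cardiac repolarisation, differed by 0.83 ± 0.14 and 1.41 ± 0.14 in the same direction (adjusted p = 3.06e-05 and 2.36e-08). The thoracic Kcnh2 level was below the abdominal one by -0.58 ± 0.16, whereas another, dim probe gave 0.21 (adjusted p = 0.435). Kcnh1 and Kcnh6, also of the EAG and ERG type, were higher by 0.44 to 0.59 (Kcnh1, detected on 0 of 5 mesenteric Sham arrays, by at least 1.14-fold and 1.19-fold). In the authors' values their thoracic differences turned to -0.08 and -0.14 (limma adjusted p = 0.0651 and 0.0132), so Kcnh6 passed in the opposite direction. The abdominal Kcnh6 difference did not pass in those values (0.08). The thoracic Kcnh1 difference was lost without thoracic Sham array 3 (adjusted p = 0.0541), the abdominal one without abdominal Sham array 2 (0.0634), and the thoracic Kcnh6 difference without thoracic Sham array 1 or 2 (0.0885 and 0.0556).

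Among the auxiliary subunits of Kv channels, Kcnab1, which codes for a cytoplasmic beta subunit of Kv1 channels, had Sham signals of 11.18, 11.09 and 11.30 in thoracic aorta, 11.05, 11.02 and 11.11 in abdominal aorta, and 10.31, 10.40, 10.05, 10.48 and 10.57 in mesenteric arteries. It was higher in both aortic segments, by 0.83 ± 0.15 and 0.70 ± 0.15 (limma adjusted p = 6.78e-05 and 0.000572), with no overlap, although the abdominal difference was 0.05 in the authors' values (adjusted p = 0.789). Its paralogue Kcnab2 had the opposite order, with differences of -1.17 ± 0.15 and -1.15 ± 0.15. The calcium-binding Kv4 partners also split: Kcnip4 was detected in 3 of 3 thoracic, 2 of 3 abdominal and 0 of 5 mesenteric Sham arrays and was at least 1.36-fold higher in thoracic aorta, which the authors' values did not show (0.05, adjusted p = 0.145). Kcnip3 was detected on 0 thoracic, 3 of 3 abdominal and 5 of 5 mesenteric Sham arrays and was at least 1.65-fold lower in the thoracic aorta than in mesenteric arteries and at least 1.38-fold lower than in abdominal aorta. Kcne1l was at least 1.07-fold lower in thoracic aorta and at least 1.06-fold lower in abdominal aorta than in mesenteric arteries. Kcne4, an auxiliary subunit that modulates KCNQ and Kv1 channels, read between 7.31 and 8.18 on all Sham arrays, and its thoracic excess of 0.38 ± 0.15 (adjusted p = 0.0356) did not pass under cyclic loess (adjusted p = 0.0914), without the 3 arrays that carried pancreas transcripts (0.101) or without Sham arrays mesenteric 1, mesenteric 3, thoracic 1 or thoracic 3 (adjusted p = 0.0952, 0.0972, 0.0577 and 0.163), and turned to -0.15 in the authors' values.

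**Figure D2:**
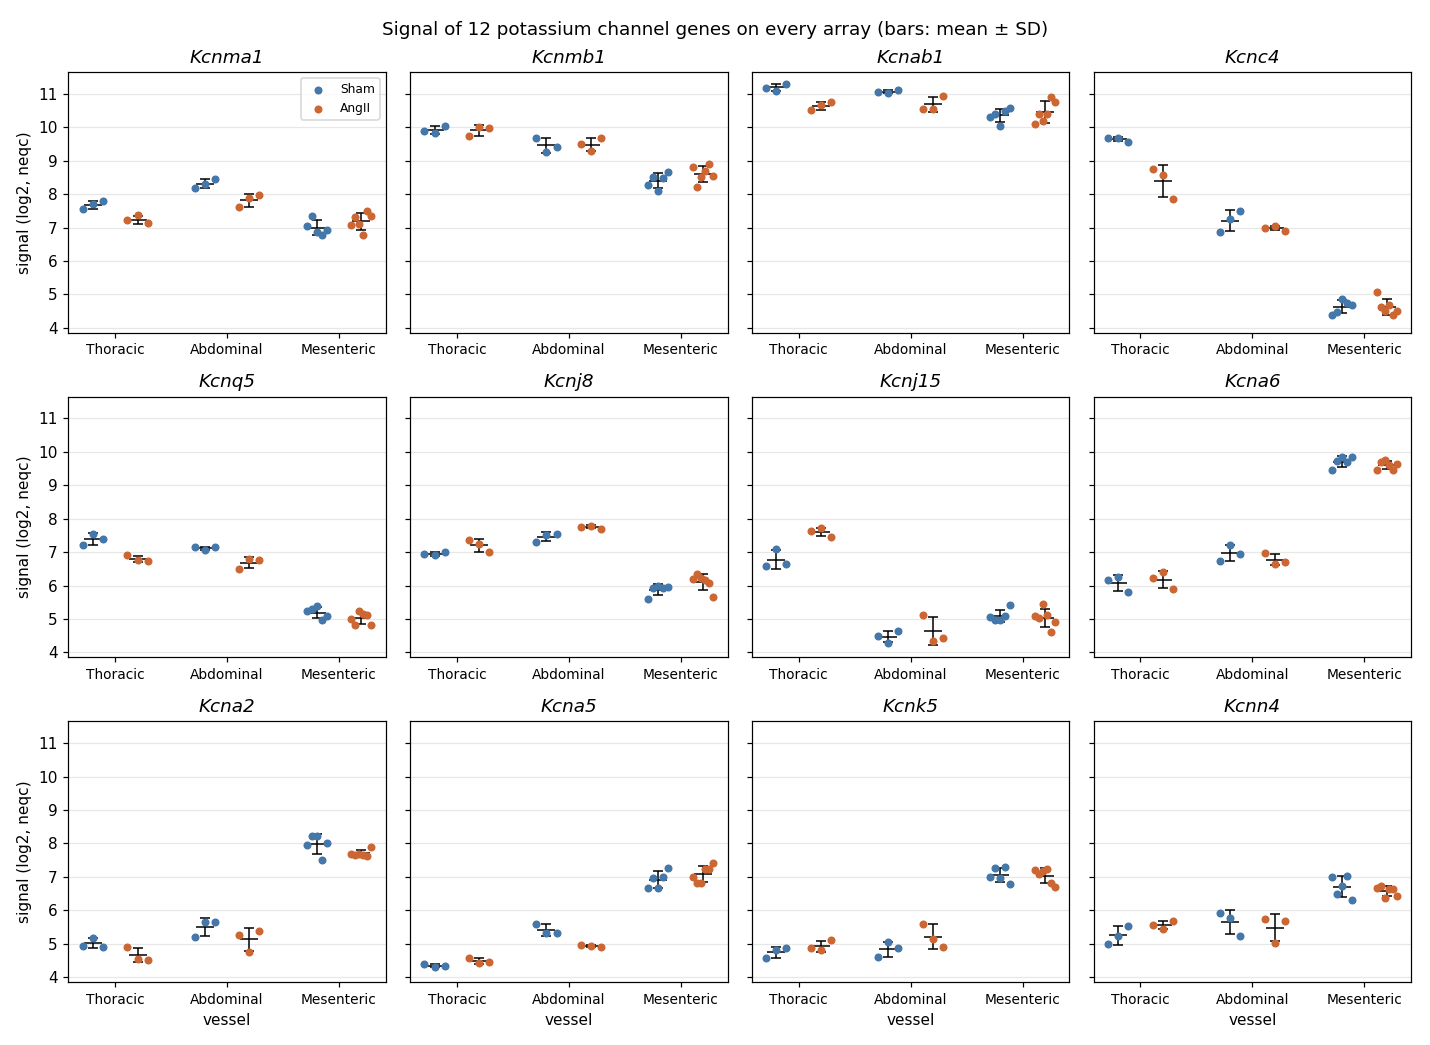
Log2 signal (vertical axis) of 12 Kcn genes on every array, by vessel (horizontal axis), with Sham arrays in blue, AngII arrays in orange and black bars for the mean ± SD of each group. Kcnc4 falls from 9.57 to 9.68 in thoracic Sham aorta to between 4.39 and 4.86 in mesenteric Sham arteries, Kcna6 runs the other way, and the AngII arrays of Kcnma1, Kcnab1, Kcnc4 and Kcnq5 lie below the Sham arrays in thoracic aorta.

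Kcnj8 codes for the pore of the vascular ATP-sensitive channel, which Abcc9, the sulfonylurea receptor SUR2, completes. Kcnj8 read 6.94, 6.90 and 7.01 in thoracic, 7.31, 7.52 and 7.55 in abdominal and 5.59, 5.93, 6.00, 5.94 and 5.95 in mesenteric Sham vessels. It was 2.10-fold higher in thoracic and 2.99-fold higher in abdominal aorta than in mesenteric arteries (1.07 ± 0.12 and 1.58 ± 0.12, limma adjusted p = 1.35e-07 and 4.67e-10). Both Kcnj8 differences passed in every alternative, but their size ran from 0.13 to 1.10 and from 0.46 to 1.65. Abcc9 differed in the same direction by 2.53 ± 0.10 and 2.38 ± 0.10. The thoracic Kcnj8 level was below the abdominal one by -0.51 ± 0.14 (adjusted p = 0.0148), and this passed no longer without Sham arrays thoracic 2, abdominal 2 or abdominal 3 (adjusted p = 0.0546, 0.0616 and 0.0596).

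The other inward rectifiers did not follow Kcnj8. Kcnj15 read 6.57, 7.10 and 6.65 in thoracic Sham aorta, was detected on 0 of 3 abdominal Sham arrays (4.50, 4.30 and 4.63) and read 5.07, 4.99, 4.96, 5.08 and 5.41 in mesenteric Sham arteries. The thoracic arrays stood above both other vessels without overlap, by 3.18-fold over mesenteric arteries (1.67 ± 0.17, limma adjusted p = 2.27e-08) and at least 3.37-fold over abdominal aorta, and a second Kcnj15 probe gave 0.91 and 0.84 for these. The lower abdominal than mesenteric level (at least 1.06-fold, fitted difference -0.63) had no counterpart on that probe (0.06, adjusted p = 0.665). Kcnj12, a strong inward rectifier, was detected on 0 of 3 thoracic Sham arrays and was at least 2.02-fold lower there than in mesenteric arteries. Its abdominal level was lower by -0.66 ± 0.16. Against the abdominal aorta the thoracic Kcnj12 level was at least 1.28-fold lower (fitted difference -0.69, adjusted p = 0.0134). Without abdominal Sham array 1, the array with skeletal muscle transcripts, on which Kcnj12 was brightest (5.75), the difference was -0.50 (adjusted p = 0.0959). Without thoracic Sham array 1 or abdominal Sham array 2 the adjusted p was 0.0596 or 0.0627.

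Of the 6 detected K2P genes, 4 passed in each comparison of Sham aorta with mesenteric arteries, all of them lower in the aorta. Kcnk5 and Kcnk2, an acid-sensitive and a stretch-sensitive leak channel, were detected on 5 of 5 mesenteric Sham arrays and on 0 of 3 thoracic Sham arrays. Kcnk5 read 7.00, 7.26, 6.95, 7.28 and 6.78 in mesenteric arteries against 4.56, 4.81 and 4.87 in thoracic aorta, at least 4.14-fold lower in the latter (limma adjusted p = 2.69e-11). Kcnk2 was at least 2.69-fold lower in thoracic and at least 2.67-fold lower in abdominal aorta. Kcnk13 was at least 1.99-fold lower in thoracic aorta, and Kcnk6 was lower by -0.61 ± 0.09 and -0.26 ± 0.09. Kcnk6 in abdominal against mesenteric vessels did not pass without Sham arrays mesenteric 5, abdominal 1 or abdominal 3 (adjusted p = 0.0501, 0.0634 and 0.0638), nor without the arrays that carried pancreas transcripts (0.0599), nor on a second Kcnk6 probe (-0.26, adjusted p = 0.0828). Kcnk1, of the TWIK type, read 5.33, 5.68 and 5.53 in thoracic, 4.56, 4.55 and 4.63 in abdominal and 6.36, 4.42, 4.40, 4.30 and 4.40 in mesenteric Sham vessels, where its brightest array was one that carried pancreas transcripts. Its thoracic excess over mesenteric arteries was 0.74 and did not pass (adjusted p = 0.103). It was detected on 1 of 5 mesenteric Sham arrays. Without the arrays that carried pancreas transcripts the fitted thoracic excess of Kcnk1 was 1.13 and passed (limma adjusted p = 9.36e-10). Its sign was opposite to that of the other K2P genes that passed. Without those arrays, however, Kcnk1 met the detection limit only through the 3 thoracic Sham arrays, where it was high. This call is therefore no independent result. The thoracic Kcnk1 arrays also lay above the abdominal ones, by at least 1.41-fold, which did not pass (adjusted p = 0.15). Kcnk3, a leak channel of pulmonary artery muscle, did not pass in any Sham comparison, with thoracic signals spread from 5.49 to 6.67.

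Kcnn4, the intermediate-conductance calcium-activated channel of endothelium, read 6.99, 6.49, 6.73, 7.02 and 6.31 in mesenteric Sham arteries against 4.98, 5.22 and 5.54 in thoracic and 5.92, 5.78 and 5.23 in abdominal Sham aorta. All mesenteric arrays were brighter, with differences of -1.46 ± 0.18 and -1.07 ± 0.18 (limma adjusted p = 4.47e-07 and 4.53e-05). Kcnu1, the gene of a channel known from sperm, was detected on 3 of 5 mesenteric and 0 aortic Sham arrays, and its mesenteric signals ran from 4.86 to 5.18. The silent Kv subunits Kcng4 and Kcns1, the small-conductance channel Kcnn1 and Kcnrg did not pass in any Sham comparison. The noncoding Kcnq1ot1 was higher in thoracic and abdominal aorta by 0.62 and 0.36. In the authors' values these were 0.08 (limma adjusted p = 0.355) and -0.19 (0.0411), so the abdominal difference passed in the opposite direction. The abdominal difference of 0.36 was lost without abdominal Sham array 2 or 3 (adjusted p = 0.0674 and 0.0632).

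Between the aortic segments 10 of the 33 genes differed (30.3%, against 13.8% of all detected transcripts), 2 higher and 8 lower in the thoracic aorta (backgrounds 6.45% and 7.35%). Kcnc4 and Kcnj15 were the higher ones. Kcna6, Kcnma1, Kcnh2, Kcnj8 and Kcnk6 were lower, by -0.89 to -0.35, and Kcna5, Kcnip3 and Kcnj12, which were detected on 0 thoracic Sham arrays, were lower by the bounds given above. The Kcnk6 difference did not pass on its second probe (-0.35, adjusted p = 0.0934) or without Sham arrays thoracic 1, thoracic 2 or abdominal 2 (adjusted p = 0.11, 0.0764 and 0.0889), and Kcnh2 did not pass without thoracic 2 or abdominal 3 (0.0548 and 0.0533). In the authors' values, where the median of all transcripts lay at -0.12, 28 genes passed, 4 higher and 24 lower. Without the abdominal array that carried skeletal muscle transcripts 12 genes passed, with Kcnmb1, Kcna1 (-0.73, adjusted p = 0.0283) and Kcna2 (-0.64, adjusted p = 0.0263) gained and Kcnj12 lost.

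Markers of cell types differed between the same vessels. Against Sham mesenteric arteries, Sham thoracic aorta had 10 of 12 smooth muscle markers higher and 1 lower (median difference 0.70; Kcnma1 and Kcnmb1 are among the 12), 11 of 11 endothelial markers lower (median -1.78), 5 of 5 Schwann cell markers lower (median -3.25), 10 of 10 macrophage markers lower (median -1.29) and 6 of 7 white adipocyte markers lower (median -1.87). The mean endothelial marker signal ran from 8.36 to 8.50 in thoracic and from 10.14 to 10.25 in mesenteric Sham vessels. For Schwann cells it ran from 5.53 to 5.68 and from 7.68 to 7.87. Sham abdominal aorta differed from mesenteric arteries likewise, with 9 of 12 smooth muscle markers higher and 1 lower (median 0.68) and 11 of 11 endothelial markers lower (median -1.23). Between the aortic segments, the thoracic aorta had 7 of 8 brown adipocyte markers higher (median 2.13), 8 of 11 endothelial markers lower (median -0.58), 6 of 8 fibroblast markers lower and 1 higher (median -0.81) and 3 of 5 Schwann cell markers lower (median -1.06). The mean brown adipocyte marker signal ran from 7.75 to 8.67 in thoracic and from 5.81 to 6.24 in abdominal Sham aorta. The part of these cell types in the differences of the Kcn genes was not tested.

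With angiotensin II most of the Kcn genes that passed did so in the thoracic aorta. There 8 of the 33 genes passed, 2 higher and 6 lower in AngII (24.2%, against 17.3% of all detected transcripts, 8.63% higher and 8.62% lower). The median difference over the 33 genes was -0.01 and over all detected transcripts -0.02. In abdominal aorta 1 gene passed (background 1.09%) and in mesenteric arteries 0 (background 0.34%), where limma gave 5 genes at an unadjusted p under 0.05, and a fit over all groups gave 1 gene after adjustment. AngII and Sham arrays did not overlap for 12 of the 33 genes in thoracic aorta, against 36.9% of all detected transcripts.

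**Figure D3:**
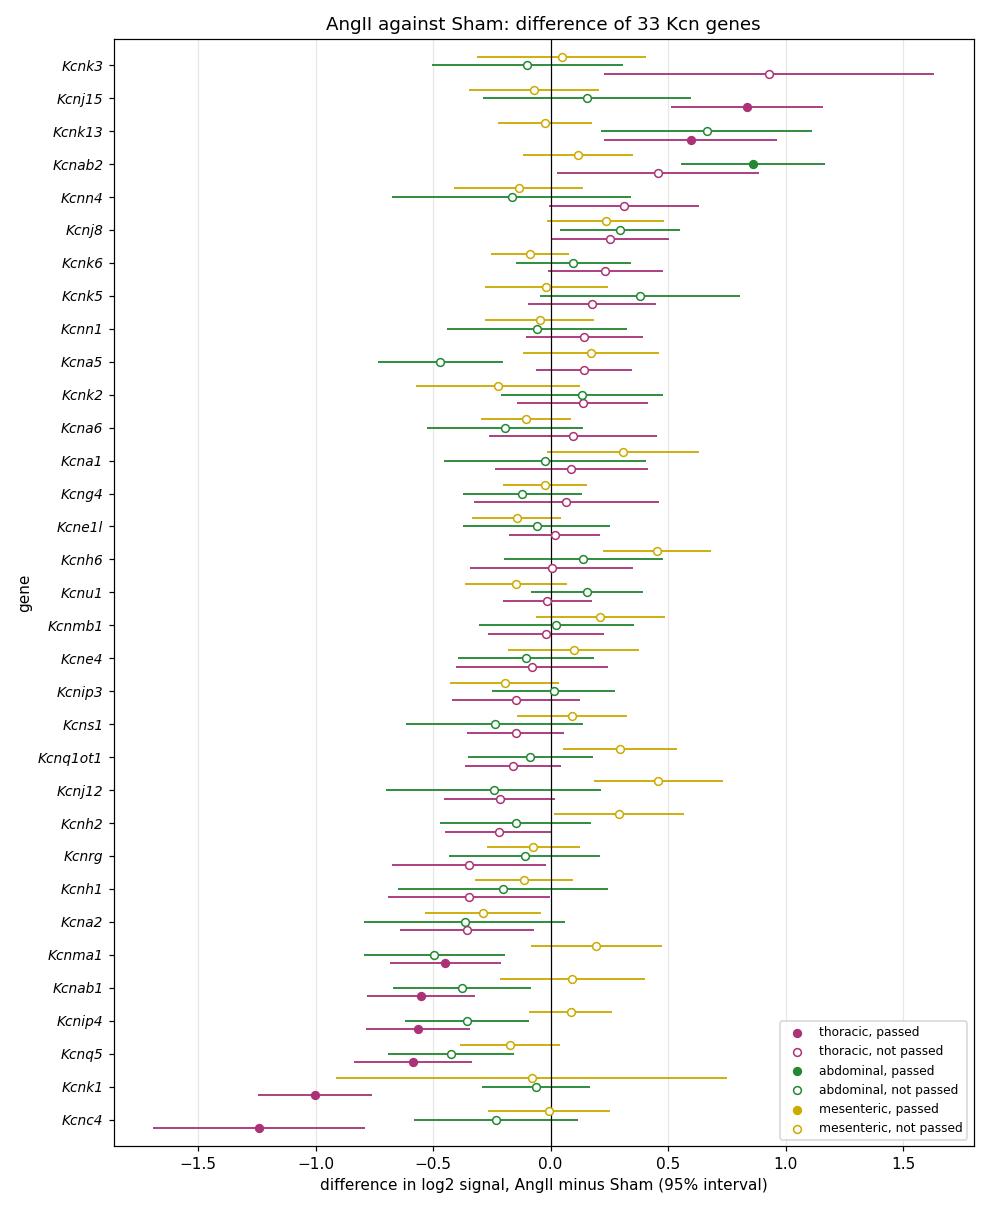
Difference in log2 signal between AngII and Sham for the 33 detected Kcn genes (rows) in thoracic aorta (purple), abdominal aorta (green) and mesenteric arteries (yellow), with 95% intervals as lines and filled points for genes that passed. Fitted thoracic falls run from Kcnc4 (-1.24) to Kcnma1 (-0.45), and Kcnj15 (0.84) and Kcnk13 (0.60) are the thoracic rises that passed; all mesenteric points are open.

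Kcnc4, a Kv gene bright in thoracic aorta, had the largest fall there among the genes detected on all 6 thoracic arrays. Its 3 AngII signals were 8.76, 8.58 and 7.86 against 9.67, 9.68 and 9.57 in Sham. All AngII arrays were below all Sham arrays, and the level fell by 1.24 on the log2 scale (SE 0.20, 95% interval -1.69 to -0.79, limma adjusted p = 0.00407), which is 2.36-fold. The second Kcnc4 probe fell by 0.90 (adjusted p = 0.0127). In abdominal aorta Kcnc4 differed by -0.23 (95% interval -0.58 to 0.11), with AngII signals of 6.99, 7.03 and 6.91 inside the Sham range.

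Kcnq5 fell in thoracic aorta from 7.21, 7.56 and 7.40 to 6.91, 6.75 and 6.75 (-0.59 ± 0.11, limma adjusted p = 0.00846), and Kcnab1 from 11.18, 11.09 and 11.30 to 10.51, 10.66 and 10.74 (-0.55 ± 0.10, adjusted p = 0.0074). Neither gene's groups overlapped, and a second Kcnab1 probe gave -0.60. In abdominal aorta AngII was lower without overlap for both genes as well, by -0.42 and -0.38, but neither passed (limma adjusted p = 0.134 and 0.22). Of the 33 genes, 5 were lower without overlap there, against 11.2% of all detected transcripts, and 4 were higher without overlap.

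Kcnma1 fell in thoracic aorta from 7.55, 7.72 and 7.78 to 7.22, 7.37 and 7.12. The groups were apart, with a difference of -0.45 ± 0.10 (1.36-fold, limma adjusted p = 0.0203), and the 2 further Kcnma1 probes gave -0.52 and -0.62, both past the threshold. The call on the brightest probe was lost without AngII array 1 or 3 or Sham array 2 or 3 (adjusted p = 0.0553, 0.0679, 0.0703 and 0.0655), and in a fit over all groups (0.059). In abdominal aorta Kcnma1 read 7.60, 7.89 and 7.97 in AngII against 8.18, 8.30 and 8.46 in Sham, a difference of -0.49 (95% interval -0.80 to -0.19) without overlap that did not pass (adjusted p = 0.124). Its partner Kcnmb1 differed by -0.02 in thoracic aorta (95% interval -0.27 to 0.23), 0.03 in abdominal aorta (-0.30 to 0.36) and 0.21 in mesenteric arteries (-0.06 to 0.49).

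A pair of dim genes fell to signals that were no longer detected. Neither would have met the detection limit without the thoracic Sham arrays, so their falls are no independent result. Kcnk1 read 5.33, 5.68 and 5.53 on the thoracic Sham arrays and 4.46, 4.57 and 4.50 on the AngII arrays. It was detected on 3 of 3 Sham and 0 of 3 AngII arrays, at least 1.43-fold lower in AngII (limma adjusted p = 0.000607), and did not pass in a fit over all groups (adjusted p = 0.114). Kcnip4 fell from 5.39, 5.37 and 5.37 to 4.79, 4.68 and 4.96, also from 3 of 3 to 0 of 3 arrays detected, at least 1.30-fold (adjusted p = 0.00562), and the authors' values gave -0.12 with adjusted p = 0.0574.

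The rises that passed in thoracic aorta were those of Kcnj15 and Kcnk13. Kcnj15 read 7.64, 7.71 and 7.47 in AngII against 6.57, 7.10 and 6.65 in Sham, 1.78-fold higher without overlap (0.84 ± 0.14, limma adjusted p = 0.00543). The second Kcnj15 probe did not show it (-0.12, adjusted p = 0.584). Kcnk13, a halothane-inhibited leak channel, was detected on 2 of 3 AngII and 0 of 3 Sham arrays and was at least 1.19-fold higher (adjusted p = 0.0365). Without AngII array 1 or 3 or Sham array 2 or 3 its adjusted p was 0.11, 0.0952, 0.075 and 0.105, and it was 0.111 in the authors' values and 0.101 without the detection filter. Kcnk3 had the largest positive thoracic difference, with 6.67, 5.96 and 5.49 in Sham and 6.98, 7.49 and 6.44 in AngII, but its groups overlapped and it did not pass (0.93 ± 0.31, adjusted p = 0.0714). The mean brown adipocyte marker signal was 7.75 to 8.67 on the thoracic Sham and 8.55 to 8.96 on the thoracic AngII arrays, and its part in the Kcnk3 values was not tested.

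In abdominal aorta the gene that passed was Kcnab2, a cytoplasmic beta subunit of Kv1 channels. It read 6.57, 6.35 and 6.17 in AngII against 5.49, 5.36 and 5.65 in Sham. The groups did not overlap, and the rise was 1.82-fold (0.86 ± 0.14, limma adjusted p = 0.0255). Without AngII array 1 or 2, or Sham array 1 (the array with skeletal muscle transcripts), 2 or 3, the adjusted p was 0.0705, 0.101, 0.117, 0.11 and 0.058, and the authors' values gave 0.22 with adjusted p = 0.11. Kcna5 read 4.97, 4.94 and 4.91 in abdominal AngII aorta, detected on 0 of 3 arrays, against 5.60, 5.31 and 5.31 in Sham, detected on 3 of 3, and did not pass (adjusted p = 0.107). Kcnk13 read 5.80, 5.28 and 5.24 in abdominal AngII against 4.55, 4.62 and 5.17 in Sham, detected on 3 of 3 and 1 of 3 arrays. Kcnj8 read 7.76, 7.80 and 7.71 against 7.31, 7.52 and 7.55. Both were higher without overlap, and neither passed.

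In mesenteric arteries, which held the most arrays, none of the Kv1 genes passed. Kcna6 ran from 9.45 to 9.75 with a median of 9.63 in AngII, against 9.45 to 9.85 in Sham. Kcna5 ran from 6.81 to 7.41 with a median of 7.12, against 6.66 to 7.27. Both pairs of groups overlapped, with differences of -0.10 (95% interval -0.30 to 0.09) and 0.17 (-0.12 to 0.46). Kcnh6, of the ERG type, had the smallest adjusted p of the 33 genes there (0.45, adjusted p = 0.0782), and a dim Kcnh2 probe rose by 0.48 (adjusted p = 0.0311) while the brightest Kcnh2 probe gave 0.29 (adjusted p = 0.29). Kcnn4 differed by -0.14 (-0.41 to 0.14), Kcnj8 by 0.24 and Kcne4 by 0.10, none past the threshold in any vessel.

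The difference in the AngII effect between vessels was tested as an interaction over all arrays. Between thoracic aorta and mesenteric arteries 5 of the 33 genes passed (15.2%, against 11.4% of all detected transcripts): Kcnc4 by -1.23 ± 0.24 (limma adjusted p = 0.00188), Kcnip4 by -0.65 (0.00228), Kcnj15 by 0.91 (0.0167), Kcnma1 by -0.64 (0.0353) and Kcnab1 by -0.64 (0.049). Kcnj15, Kcnma1 and Kcnab1 had moved in thoracic aorta and lay within 0.20 of 0 in mesenteric arteries. Kcnc4 was detected on 0 of 5 Sham and 1 of 6 AngII mesenteric arrays and Kcnip4 on 0 of 5 and 0 of 6, so a fall could not have been measured there, and their interactions do not show that the vessels responded differently. The second Kcnc4 probe (-0.94) was likewise detected on 0 mesenteric arrays. The second Kcnj15 probe gave -0.18 (adjusted p = 0.48). Kcnj15 lost its call without thoracic Sham array 1 (adjusted p = 0.0589).

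The interactions of Kcnma1 and Kcnab1 were near the threshold. For Kcnma1 the adjusted p rose to between 0.0525 and 0.0985 without mesenteric AngII array 2, 5 or 6, mesenteric Sham array 3, 4 or 5, thoracic AngII array 1 or 3, or thoracic Sham array 2 or 3. The 2 further Kcnma1 probes gave -0.51 (adjusted p = 0.0679) and -0.69 (0.0287). On the brightest probe the adjusted p was 0.0599 without the 3 arrays that carried pancreas transcripts and 0.0688 without the detection filter. For Kcnab1 it rose to between 0.0503 and 0.123 without mesenteric AngII array 2, 4, 5 or 6, mesenteric Sham array 1, 2, 3 or 4, or any of the 6 thoracic arrays, and it was 0.0501 in the authors' values, 0.054 under cyclic loess and 0.0987 without the detection filter. Without the arrays that carried pancreas transcripts the interactions of Kcnk1 (-1.03, adjusted p = 4.16e-05), which was not detected on thoracic AngII arrays and was detected on 1 of 5 Sham and 1 of 6 AngII mesenteric arrays, and of Kcnq1ot1 (-0.56, adjusted p = 0.0389) passed. Kcnk1 met the detection limit through the thoracic Sham arrays, so its interaction is no independent result. Other probes passed where the brightest one did not for Kcnh2 (-0.49 and -0.71, adjusted p = 0.0405 and 0.024) and Kcnk6 (0.69, adjusted p = 0.00939). Between abdominal aorta and mesenteric arteries, and between thoracic and abdominal aorta, limma gave 0 genes (backgrounds 1.85% and 0.452%), with 10 and 4 genes at an unadjusted p under 0.05. For the thoracic and abdominal effects, 2 genes passed in the authors' values and 1 without the detection filter. The second Kcnc4 probe, detected on 0 abdominal arrays, gave -0.84 between them (limma adjusted p = 0.0413).

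Cell type markers moved with treatment in thoracic aorta as well. In AngII, 5 of 12 smooth muscle markers were lower (median -0.31), Kcnma1 among them, 5 of 8 fibroblast markers were higher (median 0.36) and 4 of 10 macrophage markers were higher (median 0.41). White adipocyte markers had 3 of 7 higher and 1 lower (median 0.62), and endothelial markers 3 of 11 higher and 1 lower (median 0.16). Pancreas markers had 3 of 9 higher and Schwann cell markers 2 of 5 (medians 0.04 and 0.10). Over all detected transcripts 8.63% were higher and 8.62% lower. The mean smooth muscle marker signal ran from 10.39 to 10.46 in AngII and from 10.67 to 10.74 in Sham, the fibroblast signal from 10.48 to 10.65 and from 9.95 to 9.98, and the macrophage signal from 7.78 to 8.46 and from 7.65 to 7.84. In mesenteric arteries 0 of 12 smooth muscle markers passed, but the mean smooth muscle signal was higher on every AngII array (10.36 to 10.67) than on every Sham array (10.02 to 10.34). In the interaction of thoracic aorta and mesenteric arteries, 7 of 12 smooth muscle markers were lower (median -0.56), Kcnma1 among them, and 4 of 8 fibroblast markers were higher (median 0.36). Also higher were 4 of 11 endothelial (median 0.30), 3 of 10 macrophage (0.58), 2 of 4 mesothelial (0.81) and 1 of 8 brown adipocyte markers (0.68). Over all detected transcripts 11.4% passed in either direction. Kcnma1 and Kcnmb1 belong to the 12 and enter the mean smooth muscle signals, which are thus not independent of the Kcn genes. The part of these cell types in the changes of the Kcn genes was not tested.

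Potassium channels work with proteins of other families, and 18 genes for such subunits and anchors were examined, of which 9 were detected. Against Sham mesenteric arteries 4 were higher and 0 lower in thoracic aorta (backgrounds 29.2% and 22.5%), and 4 were higher and 0 lower in abdominal aorta (24.9% and 21%). Ryr2, a calcium release channel with the smallest thoracic excess of the 4 (0.34, adjusted p = 0.0385), did not pass without the arrays that carried pancreas transcripts (adjusted p = 0.0862). Abcc9 read 9.96, 10.12 and 9.99 in thoracic Sham aorta and 7.54, 7.42, 7.57, 7.64 and 7.31 in mesenteric Sham arteries, a 5.77-fold difference without overlap. The anchoring protein Akap5 was detected on 0 of 5 mesenteric Sham arrays and was at least 3.78-fold higher in thoracic and 2.55-fold higher in abdominal aorta. Caveolin-3 (Cav3) differed by 1.49 and 0.73 (0.57 without the array that carried skeletal muscle transcripts), and Prkg1, the kinase through which cyclic GMP opens BK channels, by 0.84 in abdominal aorta.

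With AngII, Abcc9 was the 1 partner gene of 9 that passed in thoracic aorta (background 17.3%), from 9.96, 10.12 and 9.99 to 9.62, 9.64 and 9.52 (-0.43 ± 0.09, limma adjusted p = 0.0137), and 0 passed in the other vessels. Its pore partner Kcnj8 differed by 0.25 there (95% interval 0.00 to 0.50), with AngII signals of 7.38, 7.23 and 7.00 overlapping the Sham range. The AngII effects on Abcc9 and Prkg1 were unequal in thoracic aorta and mesenteric arteries, by -0.72 and -0.54 (adjusted p = 0.00208 and 0.0202), 2 of 9 genes against 11.4% of all detected transcripts.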

How the data were processed

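Illumina mouse arrays were read from a deposited table of intensities, background-subtracted by the authors but not normalized between arrays. The authors also deposited a detection p-value per intensity. They further deposited log2 values normalized by robust splines in lumi under R 3.0.2, per the submitters' processing notes. These gave the alternative called the authors' values. Column names of the intensity table give vessel and treatment in abbreviated form, and their numbers are not the replicate numbers of the labels, so arrays were numbered in column order, as names only. All 23 columns correlated best with a column of the same group in the authors' values.

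Intensities were converted with neqc (limma 3.58.1, R 4.3.3, statmod 1.5.0; offset 16), where negative controls were reconstructed from detection p-values. Of 45281 transcripts, 20585 were tested, those with a detection p-value under 0.01 on at least 3 arrays, with Benjamini-Hochberg adjustment over all of them. AngII was fitted against Sham separately in each vessel, and Sham vessels and interactions in a fit of group means that treats all arrays as independent. Tests were two-sided. Array number and signal over background limit the precision. Probe symbols came from the platform annotation (34885 probes with 1 symbol, 18 with several, 10378 with none). Genes in each list were chosen with earlier results of these data known. Each gene was given by its brightest tested probe, and other probes where sign or call differed. Kcnma1, Kcnmb1 and genes with a known vascular role were named whatever they showed, as were all genes that passed with AngII or an interaction, up to 8 of the largest non-overlapping Sham differences in each direction and up to 4 partner genes by adjusted p; the others were given in counts and ranges. Fitting was tested on simulated data. Plots used Python 3.11.15 and matplotlib 3.10.9. Alternatives varied normalization, background, detection filter, fit, probe and arrays.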

Additional observations from a re-analysis of the deposited data

Results flagged for a closer look

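Among 66 groups of 5 or 6 mesenteric arrays, 8 held an array far from the others, by a test that chance meets in about 1 in 20 groups. Kcnk1 had 1 bright array in each mesenteric group, at 6.36 in Sham, where the next was 4.42, and at 6.11 in AngII, where the next was 4.56. These were the arrays with the highest mean pancreas marker signals, 13.95 and 13.96, while the third array that carried pancreas transcripts (12.60) read 4.44 for Kcnk1. The part of the pancreas transcripts was not tested.

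The other arrays that stood apart were a dim AngII array of Kcna1 (6.97, next 7.50), a bright AngII array of Kcna2 (7.89, next 7.69), a dim Sham array of Kcnj8 (5.59, next 5.93), and bright Sham arrays of Kcnip4 (4.60, next 4.34), Kcnj15 (5.41, next 5.08) and Kcns1 (4.93, next 4.58).

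For 5 genes the limma interaction of the AngII effect in thoracic aorta and mesenteric arteries passed. It was -1.23 for Kcnc4, -0.65 for Kcnip4, -0.64 for Kcnma1, -0.64 for Kcnab1 and 0.91 for Kcnj15, on the log2 scale. Kcnc4 and Kcnip4 were detected on 1 and 0 mesenteric AngII arrays and on 0 mesenteric Sham arrays, so a fall could not have been measured there and their values are no test of unlike effects.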

How the results depend on the processing

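Of 1315 values compared with an alternative, 1194 kept their direction and side of the threshold, 107 kept the direction and lost the call, 6 kept it and gained the call, and 8 reversed. The 6 are values of Kcn genes that had not passed. They come from leaving out the arrays with pancreas or skeletal muscle transcripts, a step chosen after seeing the data. The same step gained no call for a partner gene. The reversals were, in the authors' values, Kcne4 (-0.15), Kcnh1 (-0.079) and Kcnh6 (-0.14) in Sham thoracic against mesenteric vessels and Kcnq1ot1 (-0.19) in abdominal against mesenteric vessels. Of these, Kcnh6 and Kcnq1ot1 passed in the reversed direction (limma adjusted p = 0.0132 and 0.0411). On another probe the reversals were Kcnh2 in thoracic against abdominal aorta (0.21) and Kcnj15 for thoracic AngII (-0.12), Sham abdominal against mesenteric vessels (0.063) and the interaction (-0.18). The cause was not tested. The count of 1 gene for AngII in abdominal aorta was 0 with the authors' values, without the detection filter and without the array rich in skeletal muscle transcripts, and 3 in a fit over all groups, which gave 1 in mesenteric arteries. The 10 genes between Sham aortic segments became 28 with the authors' values. The interaction of thoracic and abdominal aorta gave 2 genes with the authors' values and 1 without the filter, and that of abdominal aorta and mesenteric arteries gave 1 with a trended, robust fit. The limit of detection on all 23 arrays left 12 of 33 genes.

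Leaving out 1 array gave 7 to 9 genes for AngII in thoracic aorta, 0 to 1 in abdominal aorta and 0 to 0 in mesenteric arteries. It gave 25 to 27, 23 to 25 and 7 to 12 genes for Sham thoracic against mesenteric, abdominal against mesenteric and thoracic against abdominal vessels. For the interactions it gave 3 to 6 (thoracic and mesenteric), 0 to 3 (abdominal and mesenteric) and 0 to 0 (thoracic and abdominal).

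Replicate numbers could be used in the authors' values only. With the replicate block, 6 genes passed for thoracic AngII and 0 for abdominal AngII, the same as the 6 and 0 without the block. Whether the numbers pair the samples could not be told from so few arrays. Same-numbered arrays correlated by -0.01 to 0.20 in thoracic aorta, 0.02 to 0.28 in abdominal aorta and -0.53 to 0.86 in mesenteric arteries. The AngII arrays that correlated best with the Sham array of their own number were 2 of 3, 2 of 3 and 2 of 5. Dim genes near the background, with few arrays in the aortic groups, limit what can be seen.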
